A study of Mus musculus with 6 samples.

Results

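The LIM-homeodomain genes are a family of transcription factor genes, and 10 of them are described here (*Lhx1*, *Lhx2*, *Lhx3*, *Lhx4*, *Lhx5*, *Lhx6*, *Lhx8*, *Lhx9*, *Isl1* and *Lmx1b*) out of 38553 genes in the table. They were chosen by name as a family. *Lhx2* was singled out because the study drew it as raised in its mutants from these same samples, so its values are given as a description with no test, while *Lhx6* and *Lhx8* are markers of the mesenchyme around the mouth. RNA-Seq was run on poly(A)+ RNA of microdissected craniofacial tissue from E12.5 mouse embryos. The 3 control samples were Rbfox2 flox/flox and the 3 mutant samples were Pax3Cre/+:Rbfox2 flox/flox, so both groups carried the floxed allele and the mutants alone carried the Cre knock-in at *Pax3*, and samples with Cre alone were not analysed here. *Pax3*-driven Cre deletes *Rbfox2*, which encodes a splicing regulator, in neural crest and other *Pax3*-expressing cells, and not in every cell of the dissected face. The comparison of these groups addresses which genes differ in expression between them. Effects of *Rbfox2* loss and of the Cre knock-in at *Pax3* cannot be told apart in it.

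LIM-homeodomain proteins carry a pair of zinc-binding LIM domains, which bind partner proteins, and a homeodomain, which binds DNA. They act in complexes built on the adaptor Ldb1, and combinations of them are known to specify cell types in the embryo. In the head, *Lhx2* and *Lhx9* are known for forebrain progenitors and the eye field, *Lhx1* and *Lhx5* for early brain neurons, *Lhx3* and *Lhx4* for the pituitary and motor neurons, *Isl1* for cranial sensory and motor neurons and part of the jaw mesenchyme, *Lmx1b* for midbrain, hindbrain and periocular mesenchyme, and *Lhx6* and *Lhx8* for the jaw and palate mesenchyme as well as the ventral forebrain.

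The family falls into close pairs, and the homeobox, the stretch that encodes the homeodomain, is printed for the 2 pairs on which the results turn to show how alike their members are and whether their reads can be told apart. Each run holds 180 bases, 5′ to 3′ on the coding strand, from the GENCODE M21 transcript with the longest open reading frame (GRCm38). Capitals mark the bases that differ between the members of a pair, *Lhx2* against *Lhx9* and *Lhx6* against *Lhx8*.
Lhx2: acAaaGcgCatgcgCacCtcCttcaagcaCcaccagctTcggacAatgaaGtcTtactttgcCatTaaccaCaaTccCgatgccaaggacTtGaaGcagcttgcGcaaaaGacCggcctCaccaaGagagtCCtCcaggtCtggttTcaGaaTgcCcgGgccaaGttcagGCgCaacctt
Lhx9: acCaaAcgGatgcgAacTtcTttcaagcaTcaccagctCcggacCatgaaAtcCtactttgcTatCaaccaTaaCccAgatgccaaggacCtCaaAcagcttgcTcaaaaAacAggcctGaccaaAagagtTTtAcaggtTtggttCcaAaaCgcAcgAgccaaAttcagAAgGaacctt
Lhx6: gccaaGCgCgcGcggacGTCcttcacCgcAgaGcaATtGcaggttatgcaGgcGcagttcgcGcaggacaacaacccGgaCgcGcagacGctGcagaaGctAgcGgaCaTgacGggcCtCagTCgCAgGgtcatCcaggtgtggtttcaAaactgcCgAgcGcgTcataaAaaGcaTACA
Lhx8: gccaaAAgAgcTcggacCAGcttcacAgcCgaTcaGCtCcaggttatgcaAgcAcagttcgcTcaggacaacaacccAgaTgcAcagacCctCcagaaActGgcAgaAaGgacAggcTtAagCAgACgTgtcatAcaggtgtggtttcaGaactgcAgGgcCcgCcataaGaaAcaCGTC
The homeobox of *Lhx2* lies in exons 4 and 5 on the plus strand (chr2:38359966-38368883) and that of *Lhx9* in exons 4 and 5 on the minus strand (chr1:138831583-138832839). They differ at 37 bases, so 79.4% of the bases are identical, and all 60 encoded residues are the same. The homeoboxes of *Lhx6* (exons 6 to 8 on the minus strand, chr2:36091095-36091647) and *Lhx8* (exons 6 to 8 on the minus strand, chr3:154311682-154321668) differ at 46 bases and at 4 encoded residues. *Lhx1* and *Lhx5* again encode the same 60 residues with 36 bases different. Over the 6 close pairs and the 60 other pairings of these 10 genes with *Isl2* and *Lmx1a*, the longest run of bases that any 2 transcripts shared was 23. This is well below the length of a sequencing read, so reads within the members are distinct at the level of sequence.

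The table gives FPKM, the number of fragments assigned to a gene per kilobase of its length relative to the mapped fragments of its sample. FPKM summed to between 528123 and 590174 in each sample, and the table does not hold the reads behind a value. The first replicate of each group stood apart from the others on the first principal component (54.7% of the variance of 10061 genes, at -19.1 and -17.0 against 7.55 to 11.0), so differences are also given within replicate numbers. *Rbfox2* was at 61.6 ± 3.29 in the controls and 36.2 ± 1.87 in the mutants (SD, n = 3 each), with no overlap (log2 fold change -0.75, standard error 0.079, adjusted p = 0.138 from limma). Y-linked genes were expressed in mutant replicates 1 and 2 and in none of the controls. The study's methods describe the samples of a group as independent biological replicates. The sample titles do not say that a control and a mutant of the same number were paired. RNA of jaw mesenchyme and of forebrain was present in all of them, since 12 oral and jaw mesenchyme markers summed to an FPKM of 327 to 388 and 8 forebrain progenitor markers to 111 to 225. In such bulk tissue, fewer cells of a type and less RNA per cell cannot be told apart.

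Ordered by mean FPKM over the 6 samples, which is per length and so can be compared between genes, the members ran from *Lhx2* at 60.2 through *Lhx8* at 22.5, *Isl1* at 21.5, *Lhx6* at 16.9, *Lhx9* at 7.80, *Lhx5* at 5.17, *Lhx1* at 3.27 and *Lmx1b* at 3.17 to *Lhx3* at 0.888 and *Lhx4* at 0.123. The ranges over samples overlapped between neighbours in this order except between *Isl1* and *Lhx6*, *Lhx6* and *Lhx9*, *Lmx1b* and *Lhx3*, and *Lhx3* and *Lhx4*. *Lhx2* alone made up 26.4% to 51.2% of the summed FPKM of the 10 members in a sample. The members also differed in how much they varied. The highest sample was 1.19 times the lowest for *Isl1*, 1.34 times for *Lhx6* and 1.64 times for *Lhx8*, but 3.21 times for *Lhx2*, 3.58 times for *Lhx5*, 5.79 times for *Lhx9* and 7.19 times for *Lhx1*.

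**Figure D1:**
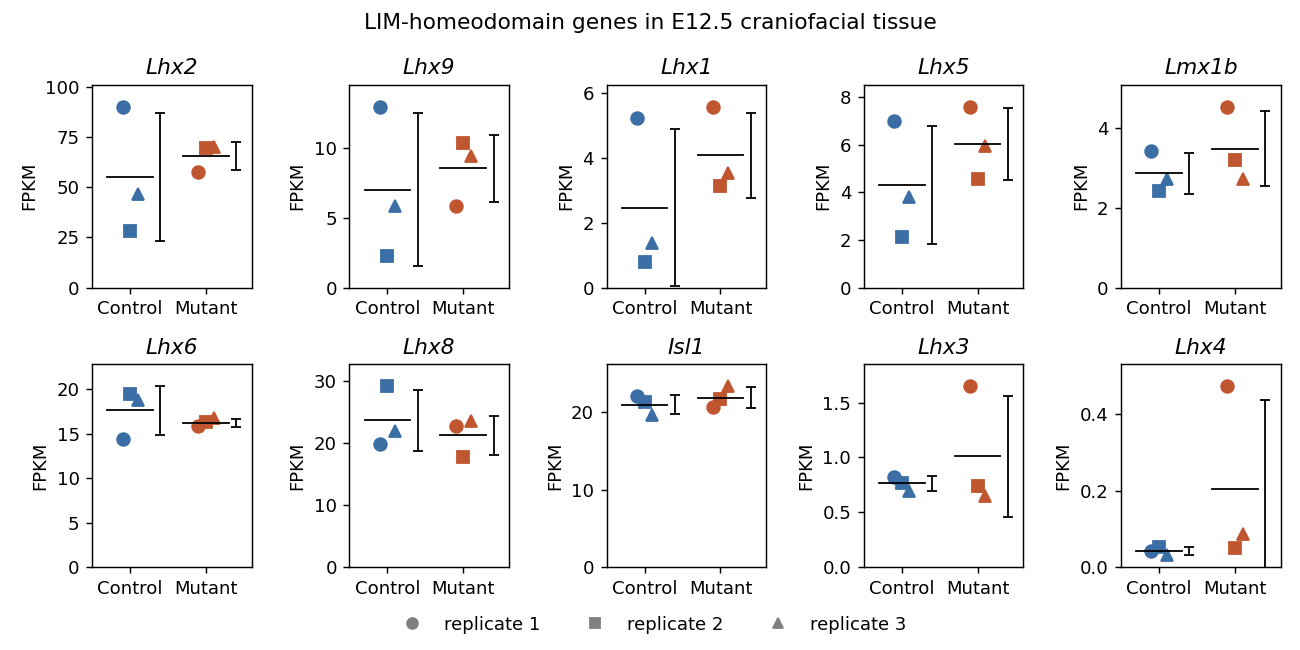
FPKM of the 10 LIM-homeodomain genes in each control and mutant sample, with 1 panel and 1 linear axis from 0 per gene. Points are samples (shape gives the replicate number), horizontal lines are group means and error bars are 1 SD (n = 3, cut off at 0). The controls of *Lhx2* run from 28.1 to 90.0 and enclose the mutants at 57.6 to 69.9.

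The filter kept genes with an FPKM over 5 in all samples of a group. Of the 10 members 5 passed it, namely *Lhx2*, *Lhx6*, *Lhx8*, *Isl1* and *Lhx9*, of which *Lhx9* passed only through the mutants, where its lowest value was 5.85. *Lhx5* fell just outside, with a lowest mutant value of 4.57. *Lhx9* and the 5 members under the filter are given as values with no test, *Lhx9* because it entered only through the group in which it was higher. In limma 0 of 10061 genes passed an adjusted p of 0.05 (0%), while 167 lay under 0.05 before adjustment (1.66%). Of the remaining 3 members, *Lhx6*, *Lhx8* and *Isl1*, 0 had an unadjusted p under 0.05. The control and mutant values overlapped in all 10 members, while they did not overlap in 503 of the genes tested (5.0%).

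*Lhx2* (ENSMUSG00000000247, chromosome 2 from 38339281 to 38369733, plus strand) is required for eye and cortex formation. Its FPKM was 90.0, 28.1 and 46.4 in control replicates 1, 2 and 3 and 57.6, 69.3 and 69.9 in mutant replicates 1, 2 and 3. The mutants lay close together, and the controls spread to both sides of them. The means were 54.8 ± 31.8 and 65.6 ± 6.94 (SD, n = 3 each), a log2 fold change of 0.41 (standard error 0.37) on the log2(FPKM + 1) scale, which is used for every log2 value here and understates changes of low genes. Within replicate numbers *Lhx2* was higher in the mutant of replicates 2 and 3, at 1.27 and 0.58, and lower in the mutant of replicate 1, at -0.64. Control replicate 2 carried the mean difference, since the log2 fold change was 0.015 without it, and 0.84 when control replicate 1 was left out. A pair of antisense genes, *Gm27197* and *Gm13584*, overlap *Lhx2*, others overlap *Lhx3* (*Gm27196*), *Lhx5* (*Gm27199*) and *Lmx1b* (*Gm38011*), and the sources used here do not say whether fragments were assigned by strand.

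*Lhx9* (ENSMUSG00000019230, chromosome 1 from 138825186 to 138848577, minus strand), the close relative of *Lhx2*, had FPKM of 13.0, 2.25 and 5.86 among controls, against 5.85, 10.4 and 9.43 among mutants. The order of the samples was near that of *Lhx2*, with control replicate 1 highest and control replicate 2 lowest. The log2 difference was 0.46 (standard error 0.49), and the groups overlapped. The difference was -1.03 in replicate 1 and 1.81 and 0.61 in replicates 2 and 3. Leaving out control replicate 2 gave -0.071, and leaving out control replicate 1 gave 0.98. The summed FPKM of *Lhx2* and *Lhx9* was 103, 30.3 and 52.3 among controls, against 63.5, 79.7 and 79.4 among mutants.

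In a fit on replicates 2 and 3 only, 1130 of 10258 genes (11.0%) had an unadjusted p under 0.05 in limma. Of *Lhx6*, *Lhx8* and *Isl1*, 1 did, *Lhx6* with a log2 fold change of -0.20 (95% interval -0.37 to -0.037, adjusted p = 0.414). *Lhx6* also had an unadjusted p under 0.05 when control replicate 1 alone was left out, beside 690 of 10224 genes (6.75%). It did not pass after adjustment in either fit, and its adjusted p ranged up to 1.0 over the other fits. *Lhx9* differed by 1.21 in replicates 2 and 3, again having entered only through the mutants.

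**Figure D2:**
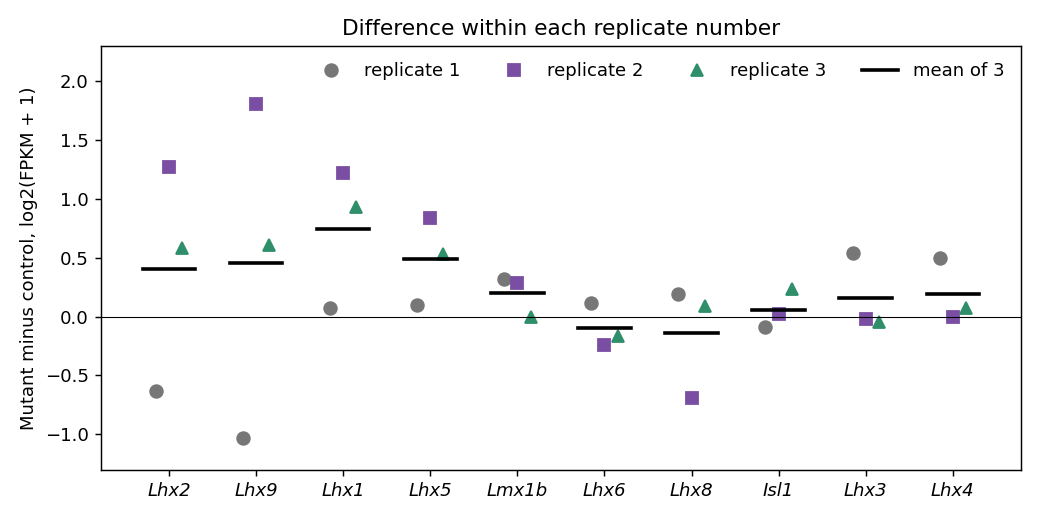
Mutant minus control on the log2(FPKM + 1) scale within replicate numbers 1, 2 and 3 (points) for each of the 10 members, with the mean of the 3 differences as a bar. For *Lhx2* and *Lhx9* the replicate 1 points lie below 0, at -0.64 and -1.03, and the replicate 2 points above 1, at 1.27 and 1.81.

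Forebrain markers varied with *Lhx2* and *Lhx9* across the samples. The 8 forebrain progenitor markers summed to an FPKM of 225, 111 and 166 among controls, against 165, 199 and 182 among mutants, again with control replicate 1 highest and control replicate 2 lowest, and 7 of the 8 were lowest in control replicate 2. None of the 8 had an unadjusted p under 0.05 in limma (7 higher and 1 lower in the mutants, median log2 fold change 0.24, against 0.0057 over all genes tested). The median was -0.36 in replicate 1 and 0.55 in replicates 2 and 3. The 6 ventral forebrain markers summed to 42.7 to 78.2 in the controls and 52.4 to 71.6 in the mutants. All 6 were lowest in control replicate 2, and 4 of the 6 passed the filter. Beside the counts of both lists, 18.6% of all genes tested were lowest in control replicate 2. No marker of these 2 lists was at 0 in any sample. The part of forebrain tissue in the *Lhx2* and *Lhx9* values was not tested.

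The genes whose values over the 6 samples were most like those of *Lhx2* by Pearson's r of log2(FPKM + 1) over samples among the genes tested, were *Fezf2* (r = 0.998), *Mfng* (0.996), *H3f3a* (0.995), *Emx1* (0.994) and *Mettl9* (0.992). These r are a description over 6 samples that share 2 groups and a split by first replicate. *Emx1* and *Fezf2* are dorsal forebrain transcription factors, and *Mfng* modifies Notch receptors. *Emx1* was at 17.8, 6.39 and 9.67 among controls, against 11.0, 13.5 and 13.9 among mutants, the same order of the 6 samples as *Lhx2*. Without control replicates 1 and 2, the samples farthest from the median of *Lhx2*, r was 0.978 to 0.992 for the 5 genes. The genes of this list and of those below were picked for their r over these same samples, so such values are no independent check. For *Lhx9* the 5 genes were *Podxl* (r = 0.998), *Mfng* (0.990), *Nuak2* (0.986), *Emx1* (0.985) and *Ptrh2* (0.984), so that *Mfng* and *Emx1* stood in both lists, and r was 0.936 to 0.996 without the 2 samples farthest from the median of *Lhx9*.

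*Lhx1* (ENSMUSG00000018698, chromosome 11 from 84518284 to 84525535, minus strand) and *Lhx5* (ENSMUSG00000029595, chromosome 5 from 120431699 to 120441223, plus strand) are known from early-born neurons and head organisation. *Lhx1* had FPKM of 5.24, 0.776 and 1.38 among controls, against 5.58, 3.13 and 3.54 among mutants. *Lhx5* had 7.01, 2.12 and 3.80 among controls, against 7.60, 4.57 and 5.93 among mutants. In both genes the first replicates of the 2 groups were the highest samples of their group, control replicate 2 was lowest, and the mutant was higher in each replicate number. The log2 differences in replicates 1, 2 and 3 were 0.076, 1.22 and 0.93 for *Lhx1* and 0.10, 0.84 and 0.53 for *Lhx5*. The mean differences, 0.74 and 0.49, fell to 0.37 and 0.16 without control replicate 2 and were 1.28 and 0.84 without control replicate 1. Both genes lay under the FPKM filter. *Lmx1a*, a family gene outside the 10 that marks the roof plate and cortical hem, ran alike at 3.89, 1.03 and 0.954 among controls, against 3.97, 3.28 and 3.80 among mutants.

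Some neuronal genes were higher in the mutants before adjustment for multiple testing. *Tubb3*, a neuronal tubulin, was at 392, 322 and 366 among controls, against 402, 498 and 466 among mutants, with no overlap (log2 fold change 0.34, standard error 0.12, adjusted p = 1.0 from limma). *Elavl3*, a neuronal RNA-binding protein gene, was at 31.7, 26.2 and 31.1 against 33.7, 35.1 and 35.6 (log2 fold change 0.23, standard error 0.093, adjusted p = 1.0). The 4 neuronal markers were listed with earlier results of these data known, so their counts are a description. Of them, 2 had an unadjusted p under 0.05 in limma, beside 1.66% of all genes tested. With the replicate number as a block 4 did so, beside 6.0%. All were higher in the mutants, and none had an adjusted p under 0.05 in either fit. Their summed FPKM was 501 to 587 in the controls and 609 to 712 in the mutants. *Lhx1* and *Lhx5* were highest in mutant replicate 1, where the neuronal sum was the lowest of the mutants. The part of neurons in their values was not tested.

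*Lmx1b* (ENSMUSG00000038765, chromosome 2 from 33560965 to 33640511, minus strand), *Lhx3* (ENSMUSG00000026934, chromosome 2 from 26200212 to 26208289, minus strand) and *Lhx4* (ENSMUSG00000026468, chromosome 1 from 155698031 to 155751684, minus strand) were the members of lowest level together with *Lhx1*. *Lmx1b* was at 3.42, 2.43 and 2.73 among controls, against 4.53, 3.19 and 2.73 among mutants. *Lhx3* was at 0.826, 0.764 and 0.698 among controls, against 1.65, 0.743 and 0.645 among mutants. *Lhx4* was at 0.0429, 0.0536 and 0.0318 among controls, against 0.474, 0.0504 and 0.0875 among mutants. In all of them mutant replicate 1 was the highest sample, and the other mutants lay within or near the range of the controls. Without mutant replicate 1 the log2 differences went from 0.20, 0.16 and 0.19 to 0.042, -0.058 and 0.036 for *Lmx1b*, *Lhx3* and *Lhx4*.

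Mutant replicate 1 was the highest of the 6 samples in 5 of the 10 members (*Lhx1*, *Lhx3*, *Lhx4*, *Lhx5* and *Lmx1b*), beside 12.2% of all genes tested. These 5 members all lay under the FPKM filter that the genes tested had passed, so that share comes from an unlike set of genes. The 7 markers of midbrain, hindbrain and motor neurons summed to an FPKM of 9.48 in this sample and to 1.91 to 2.84 in the other 5, with 5 of the 7 at their highest there. *Pax2*, which like *Mnx1* and *Chat* is named after the values were seen, was at 2.5 in mutant replicate 1 against 0.176 to 0.565 in the other samples. *Mnx1*, a motor neuron factor, was not above 0.0881 in any sample, and *Chat*, the acetylcholine synthesis enzyme of motor neurons, was listed at 0 in the 3 controls. The pituitary markers did not single out this sample, since the 6 of them summed to 6.85 there and 7.12 to 8.11 elsewhere, with *Pou1f1* listed at 0 in all samples. The part of hindbrain tissue in mutant replicate 1 in these 5 members was not tested.

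*Lhx6* (ENSMUSG00000026890, chromosome 2 from 36081953 to 36105408, minus strand) and *Lhx8* (ENSMUSG00000096225, chromosome 3 from 154306294 to 154330659, minus strand) are induced by FGF signals from the oral epithelium in the mesenchyme of the jaws, and *Lhx8* loss is known to cleave the palate. *Lhx6* had FPKM of 14.4, 19.4 and 18.8 among controls, against 15.8, 16.3 and 16.7 among mutants. The mutants lay inside the range of the controls, which was set by a low control replicate 1. The log2 fold change was -0.096 (standard error 0.12, 95% interval -0.37 to 0.18, adjusted p = 1.0 from limma, exact two-sided permutation p = 0.40, where 3 against 3 cannot go below 0.10). *Lhx8* had 19.8, 29.2 and 22.0 among controls, against 22.7, 17.7 and 23.5 among mutants. Its highest and lowest samples were the control and the mutant numbered 2, while in replicates 1 and 3 the mutant was higher, at 0.19 and 0.094. The log2 fold change of *Lhx8* was -0.13 (standard error 0.16, 95% interval -0.52 to 0.25, adjusted p = 1.0 from limma, exact two-sided permutation p = 0.60). It was 0.020 without control replicate 2, -0.013 without mutant replicate 2 and -0.25 without control replicate 1.

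On a linear scale the intervals for *Lhx6* and *Lhx8* ran from 0.772 to 1.13 and from 0.696 to 1.19 times the control level of FPKM + 1. The summed FPKM of both genes was 34.3, 48.6 and 40.8 among controls, against 38.5, 34.0 and 40.2 among mutants. Their ratio stayed narrow, with *Lhx8* at 1.17 to 1.5 times *Lhx6* in the controls and 1.09 to 1.44 times in the mutants. These genes also mark the ventral forebrain, whose markers had their lowest sum, 42.7, in control replicate 2. The part of ventral forebrain tissue in the *Lhx6* and *Lhx8* values was not tested.

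**Figure D3:**
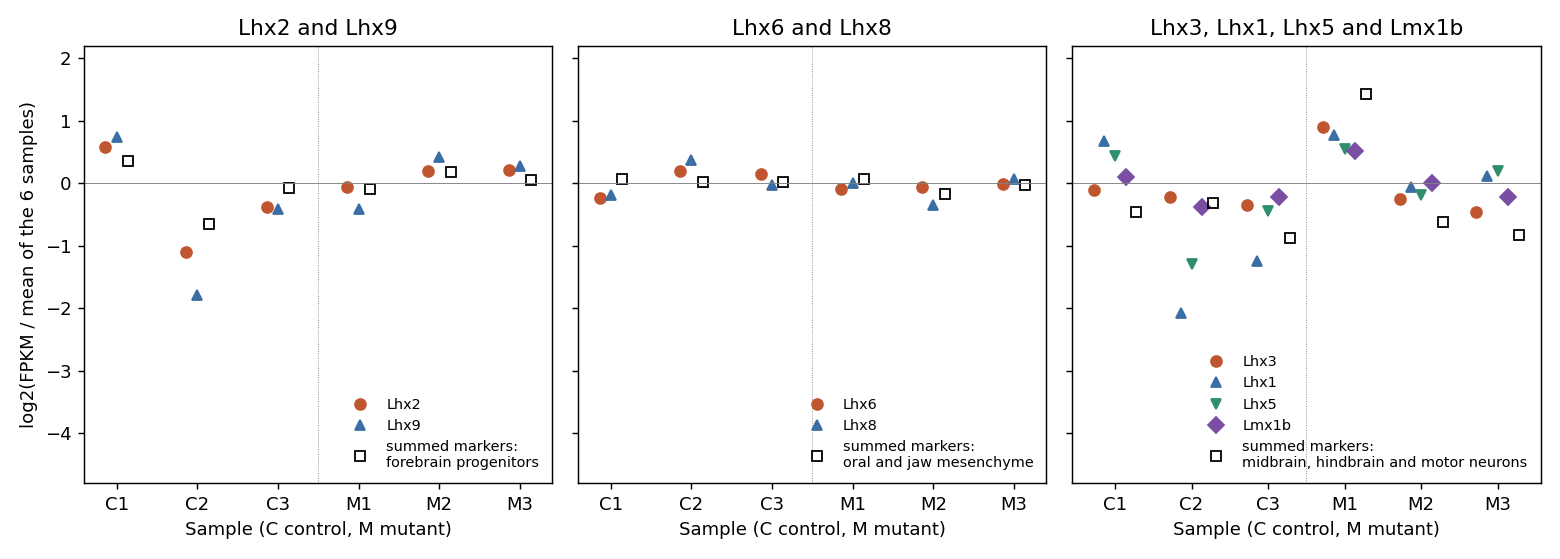
FPKM of members and of summed marker lists in each sample, relative to the mean of the 6 samples on a log2 axis, for *Lhx2* and *Lhx9* with 8 forebrain progenitor markers, *Lhx6* and *Lhx8* with 12 oral and jaw mesenchyme markers, and *Lhx3*, *Lhx1*, *Lhx5* and *Lmx1b* with 7 midbrain, hindbrain and motor neuron markers. Control replicate 2 (C2) is lowest for *Lhx2*, *Lhx9* and the forebrain sum, and mutant replicate 1 (M1) is highest for the 4 genes and the marker sum of the right panel.

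The oral and jaw mesenchyme markers varied less across the samples than the forebrain markers, with sums of 384, 374 and 374 among controls, against 388, 327 and 360 among mutants. Of the 12, 11 passed the filter and 0 had an unadjusted p under 0.05 in limma, 10 of them lower and 1 higher in the mutants, with a median log2 fold change of -0.054. The median was 0.021 in replicate 1 and -0.17 in replicates 2 and 3. *Dlx1*, a homeobox gene of the first arch with the highest mean of the list, was at 73.2, 69.6 and 81.3 among controls, against 72.9, 77.8 and 72.9 among mutants. *Tbx22*, a palate factor under the filter that is named after its values were seen, was at 4.01, 4.77 and 4.40 among controls, against 3.26, 2.67 and 3.32 among mutants, with no overlap. Of the 7 genes of FGF signalling and response, 5 passed the filter, 0 had an unadjusted p under 0.05 and 5 were lower in the mutants, with a median of -0.079. *Dusp6*, a feedback phosphatase of this pathway, was at 28.6, 29.0 and 28.9 among controls, against 30.5, 23.5 and 29.9 among mutants.

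For *Lhx6* the genes of most similar pattern were *Anxa11* (r = 0.991), *Otud3* (0.990), *Pik3r4* (0.990), *Capn6* (0.989) and *Rock2* (0.989), and for *Lhx8* they were *Rint1* (0.996), *Antxr2* (0.995), *Rasa2* (0.986), *Uba6* (0.985) and *Thoc2* (0.983). No gene of the oral and jaw mesenchyme list was among them. Without the 2 samples farthest from the member's median, r was 0.960 to 0.999 for *Lhx6* and 0.889 to 0.981 for *Lhx8*.

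*Isl1* (ENSMUSG00000042258, chromosome 13 from 116298281 to 116309689, minus strand) was the steadiest member, at 22.1, 21.4 and 19.7 among controls, against 20.7, 21.8 and 23.4 among mutants. The groups overlapped, and the log2 fold change was 0.057 (standard error 0.083, 95% interval -0.14 to 0.25, adjusted p = 1.0 from limma, exact two-sided permutation p = 0.50). On a linear scale the interval ran from 0.909 to 1.19 times the control level of FPKM + 1. The closest patterns were those of *Prr5l* (r = 0.965), *Got1* (0.955), *Tmem256* (0.955), *Ide* (0.941) and *Angel1* (0.939). Without control replicate 3 and mutant replicate 3, the samples farthest from the median of *Isl1*, r was 0.978 for *Got1* but 0.823, 0.710, 0.588 and 0.425 for *Prr5l*, *Tmem256*, *Ide* and *Angel1*, so the likeness of these 4 rests on those samples. *Isl1* marks cranial sensory neurons, and 6 of the 7 markers listed for them were in the table. They summed to 56.7, 62.5 and 45.1 among controls, against 52.8, 43.9 and 45.2 among mutants, and 4 passed the filter, of which 0 had an unadjusted p under 0.05. *Prph*, a peripheral neuron intermediate filament gene with the highest mean of the list, was at 18.4, 29.7 and 19.4 among controls, against 16.7, 17.7 and 14.8 among mutants, with no overlap (log2 fold change -0.41, standard error 0.18, adjusted p = 1.0 from limma). With the replicate number as a block it had an unadjusted p of 0.0122 (adjusted p = 0.772 from limma). *Isl2*, the close relative of *Isl1*, which passed the filter only through the controls, was at 6.93, 7.76 and 5.37 among controls, against 7.30, 4.36 and 5.57 among mutants, and is given with no test.

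The partners of LIM-homeodomain proteins overlapped between the groups in sum, at 535 to 588 in the controls and 566 to 600 in the mutants. The 10 genes listed as cofactors comprise the adaptors *Ldb1* and *Ldb2*, the LIM-only genes *Lmo1* to *Lmo4*, the ubiquitin ligase *Rlim* and the Ldb-binding *Ssbp2*, *Ssbp3* and *Ssbp4*. All 10 passed the filter, 0 had an unadjusted p under 0.05 in limma, and 7 were higher and 3 lower in the mutants, with a median log2 fold change of 0.050. *Ldb1*, the most abundant, was at 141, 159 and 159 among controls, against 144, 159 and 162 among mutants. It was thus above the summed FPKM of all 10 members in control replicates 2 and 3 and in each mutant sample, where that sum was 106 and 121, and 142, 147 and 156, and below it in control replicate 1, where the sum was 176. With the replicate number as a block 1 of the 10, *Ssbp3*, had an unadjusted p under 0.05 (adjusted p = 0.817 from limma), beside 6.0% of all genes tested, at 128, 131 and 137 among controls, against 138, 141 and 150 among mutants. The 4 periocular mesenchyme markers gave 0 with an unadjusted p under 0.05, and 1 with the block, *Foxc2*, a forkhead factor gene named after its values were seen, at 9.13, 6.85 and 5.31 among controls, against 12, 7.02 and 7.98 among mutants (adjusted p = 0.809 from limma). Of the 5 eye field and retina markers 1 passed the filter, *Six3*, at 7.79 ± 2.31 and 7.89 ± 1.78 (SD, n = 3 each), and *Pomc*, the pituitary marker of highest level, was at 4.20 ± 0.415 and 4.13 ± 0.119.

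Over the whole family, 8 of the 10 members had a higher mean log2 value in the mutants and 2, *Lhx6* and *Lhx8*, a lower one, with a median log2 difference of 0.20, beside 52.8% higher and a median of 0.0057 over all genes tested. Within replicates 1, 2 and 3, 7, 6 and 7 members were higher in the mutant, beside 45.4%, 51.6% and 55.7% of all genes tested. The median differences of the members were 0.11, 0.16 and 0.17, beside -0.013, 0.0057 and 0.015 over all genes tested. These counts and medians are a description. They include *Lhx2*, singled out because the study drew it as raised in these samples, and *Lhx9*, which passed the filter only through the mutants. They also include the 5 members under the filter, while all genes tested had passed it. With a Y-linked covariate *Lhx3*, *Lmx1b* and *Lhx8* changed sign, to -0.11, -0.048 and 0.0059. *Lhx1* and *Lhx5* were the members higher in the mutant of every replicate number, and no member was lower in all 3. Control replicate 2 was the lowest sample in 5 of the 10, beside 18.6% of all genes tested. Of these 5, *Lhx1*, *Lhx5* and *Lmx1b* lay under the filter that the genes tested had passed.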

How the data were processed

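RNA-Seq of 3 control and 3 mutant samples was analysed. The authors aligned stranded poly(A)+ reads to GRCm38 with STAR and deposited FPKM values for 38553 genes; FastQC 0.11.4 and Cuffdiff are also named in the submitters' processing notes, and the annotation and the step that made the gene table are not given in the sources used here. The study's methods give a range of reads per library, not a value for each sample, and FPKM keep no read counts, so no counting interval was computed. The tables of single samples and of all samples held the same values (0 differences). Groups and replicate numbers came from the sample titles.

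Genes with an FPKM over 5 in all samples of a group were tested on log2(FPKM + 1) with limma 3.58.1 in R 4.3.3 (intensity trend, no covariates, all 6 samples, Benjamini-Hochberg adjustment over 10061 genes). The script was tested on simulated data. Single genes were also compared by exact permutation. The members and lists were chosen with earlier results of these data known. Named genes are the members, *Rbfox2*, list genes with an unadjusted p under 0.05, the gene of highest mean in each list, and the 5 genes of most similar pattern per tested member; others are marked, and some genes that the rule names are not reported here. Deviations from the group means correlated across genes at 0.644, 0.258 and 0.513 between samples numbered 1, 2 and 3 and at -0.685 to 0.401 between other numbers, where the highest were control 3 with mutant 2 (0.401) and control 2 with mutant 3 (0.234). The sample titles do not pair the numbers. They were taken as pairs since every same-number value was over 0.1, and a fit with the number as a block was run. Because mutant 2 correlated more with control 3 than with control 2, these values do not settle the pairing of numbers 2 and 3. The alternatives were another pseudocount, 2 scalings, the block, 2 filters, no trend, a Y-linked covariate, a first-replicate term, replicates 2 and 3 only, and each sample left out. Coordinates and transcripts are from GENCODE M21 (GRCm38), which holds 95.0% of the gene identifiers.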

Additional observations from a re-analysis of the deposited data

How the results depend on the processing

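The count of genes with an adjusted p under 0.05 in limma was 0 (167 at an unadjusted p under 0.05), and it became 3 with a term for the first replicates and 4 in replicates 2 and 3 only. With each sample left out in turn it was 0 to 5, the 5 without mutant replicate 3. The unadjusted count became 604 with the replicate block, 304 with an FPKM filter of 1, 663 with no filter, 611 with a term for the first replicates and 1130 in replicates 2 and 3 only. Leaving out single samples moved it between 78 and 690. It was 690 without control replicate 1, 414 without mutant replicate 1, 110 without mutant replicate 2 and 78 without control replicate 2. The wider filters test more genes, and the cause of the other changes was not tested.

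None of *Lhx6*, *Lhx8* and *Isl1* had an unadjusted p under 0.05 in limma in the fit on all samples. *Lhx6* alone of them did in replicates 2 and 3 only, beside 11.0% of all genes tested. It also did without control replicate 1, beside 6.75%, and in no other fit. *Lhx9* is left out here because it passed the filter only through the mutants, where it was higher. With the Y-linked covariate *Lhx8*, *Lhx3* and *Lmx1b* changed sign, to 0.0059, -0.11 and -0.048, and with a pseudocount of 0.1 the difference of *Lhx4* was 0.83. With each sample left out it ran from -0.25 to 0.020 for *Lhx8*, from -0.071 to 0.98 for *Lhx9* and from 0.015 to 0.84 for *Lhx2*. With the replicate block the adjusted p of *Lhx6*, *Lhx8* and *Isl1* from limma was 0.908, 0.923 and 0.927, and the block changed no call of these members. The adjusted p of *Rbfox2* from limma, 0.138, was 0.0296 with a term for the first replicates, 0.0407 in replicates 2 and 3 only and 0.0852 with the replicate block. The reads behind each FPKM are not in the table, which limits what can be said of *Lhx3* and *Lhx4*.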
